A study of Homo sapiens with 2 samples.

Results

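The genes described here are the lineage factors of the PAX, SOX, GATA, TBX and NKX families, transcription factors that assign tissue identity in the embryo. They were taken by symbol from the deposited table, as the PAX, SOX, TBX and NKX genes with a plain family number and GATA1 to GATA6, which gave 61 of 50868 genes. The rule used no expression value. By family there were 9 PAX, 19 SOX, 6 GATA, 13 TBX and 14 NKX genes, and all 61 are protein-coding in GENCODE 29.

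The messenger RNA came from 2 cultures labelled HepG2, a human liver cancer line. The resistant culture (genotype label sorafenib resistance) had been selected with sorafenib, an inhibitor of several kinases, from 2.5 µM in steps of 0.5 µM up to 7 µM. The parental culture (genotype label WT) had no treatment. Each group had 1 library, with 16811907 counts in the resistant and 18067146 in the parental library. No value therefore has a replicate error, no test of the conditions was possible, and each 95% interval given covers counting error only. The sources used here do not give whether the selected line was 1 clone or whether drug was present at harvest.

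Each of these families is defined by a DNA-binding domain: the paired box of PAX, the HMG box of SOX, the zinc fingers of GATA, the T-box of TBX and the homeobox of NKX. A tissue is known to carry a particular combination of them rather than a single factor, and many members are silent in any one cell type. In the embryonic liver GATA4 and GATA6 act in the first steps of hepatic specification, TBX3 acts in the growth of the liver bud, and SOX9 marks the cells that line the bile ducts.

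Of the 61 factor genes, 17 were on in both libraries, meaning at least 1 CPM (counts scaled to library size and composition) in each. These 17 were 27.9% of the factor genes, against 59.8% of 19691 protein-coding genes in the same table. A further 4 genes reached 1 CPM in 1 library, 6 had more than 3 counts but stayed under 1 CPM, and 34 had at most 3 counts in both libraries. Those 34 were 55.7% of the factor genes, against 31.5% of protein-coding genes. Of them, 28 had 0 counts in both libraries, and the other 6 had at most 2 counts. A gene with 0 counts could still have a level of 0.179 CPM in the resistant and 0.166 CPM in the parental library. That is the worth of 3 counts, and levels below it can be missed at this depth. On the deposited FPKM scale, which divides by gene length, 9 genes reached 1 in both libraries.

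**Figure D1:**
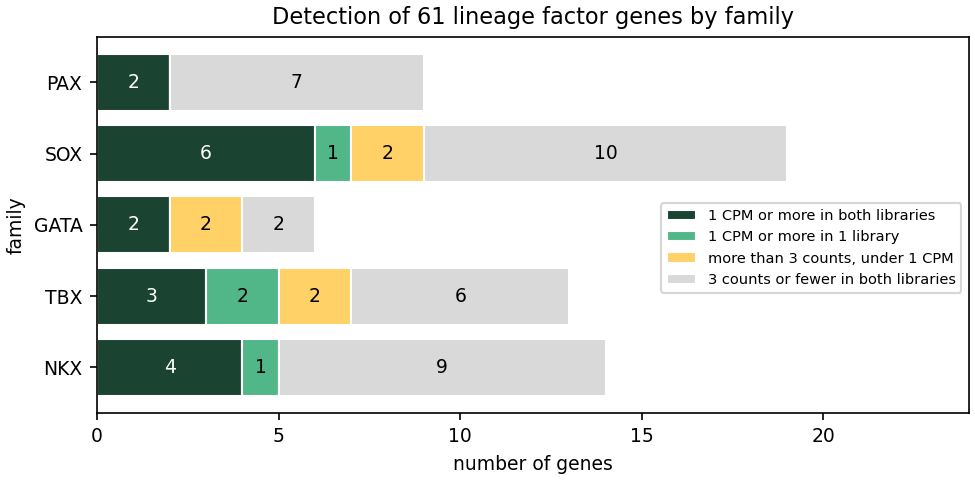
Number of genes (horizontal axis) in each family (vertical axis) by detection state, as stacked bars with the number of genes printed in each segment. The GATA family had 2 of 6 genes on in both libraries and the PAX family 2 of 9, and 34 of the 61 genes had 3 counts or fewer in both.

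The label of the line was set against the hepatocyte list first. All 12 of its genes had at most 3 counts in both libraries, with a sum of 0.418 CPM in the resistant and 0.276 CPM in the parental library. ALB, AFP, TTR, APOA1, APOB and FOXA2 were at 0 in both. The factors of early liver were mixed. GATA4 had 0 counts in both libraries, and SOX9 had 13 counts in the resistant and 9 in the parental library. GATA6 had 550 counts in the resistant and 387 in the parental library, TBX3 had 668 and 904, and HHEX, another liver bud factor, had 131 and 243. These factors also act in other tissues. The 12 hepatocyte genes thus go against the label of the line, and resistant and parental stand below for the libraries so labelled.

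The start regions of a gene with counts and a gene at 0 from each of 3 families are shown, so that the promoters of detected and silent relatives can be read side by side. Each is the 250 bases before a RefSeq gene start on GRCh38.p14, on the strand of the gene, with CG dinucleotides in capitals. The genes were chosen after their values were seen, from starts whose window lies outside the span of the deposited gene. SOX13 (chr1:204072865-204073114, plus strand), PAX9 (chr14:36657318-36657567, plus) and TBX1 (chr22:19756453-19756702, plus) were on in both libraries. SOX21 (chr13:94712546-94712795, minus), PAX7 (chr1:18630596-18630845, plus) and TBX5 (chr12:114408443-114408692, minus) had 0 counts in both. The windows of SOX13, PAX9, TBX1 and TBX5 adjoin the deposited gene start, and the bases after that start were found in the transcript. For SOX21 and PAX7 those bases were not found. Their deposited genes begin further on, at 94712399 (SOX21) and 18631006 (PAX7), so their windows are less certain as promoters.
SOX13: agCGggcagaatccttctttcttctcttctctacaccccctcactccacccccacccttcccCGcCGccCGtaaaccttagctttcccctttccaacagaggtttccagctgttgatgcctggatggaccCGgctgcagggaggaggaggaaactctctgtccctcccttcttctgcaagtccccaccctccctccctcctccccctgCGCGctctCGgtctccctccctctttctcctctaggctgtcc
SOX21: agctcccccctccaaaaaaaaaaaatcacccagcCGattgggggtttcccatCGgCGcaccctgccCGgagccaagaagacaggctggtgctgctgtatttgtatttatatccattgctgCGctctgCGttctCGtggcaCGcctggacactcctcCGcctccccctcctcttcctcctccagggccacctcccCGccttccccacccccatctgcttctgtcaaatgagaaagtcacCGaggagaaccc
PAX9: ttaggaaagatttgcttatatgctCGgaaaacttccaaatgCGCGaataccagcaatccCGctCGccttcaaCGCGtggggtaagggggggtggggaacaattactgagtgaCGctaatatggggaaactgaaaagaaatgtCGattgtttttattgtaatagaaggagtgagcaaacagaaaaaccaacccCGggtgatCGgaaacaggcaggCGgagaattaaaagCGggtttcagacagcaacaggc
PAX7: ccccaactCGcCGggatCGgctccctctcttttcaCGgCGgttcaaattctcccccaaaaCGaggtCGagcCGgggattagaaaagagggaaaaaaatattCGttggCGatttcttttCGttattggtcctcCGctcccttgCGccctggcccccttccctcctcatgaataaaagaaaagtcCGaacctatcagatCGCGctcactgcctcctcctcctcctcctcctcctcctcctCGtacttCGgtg
TBX1: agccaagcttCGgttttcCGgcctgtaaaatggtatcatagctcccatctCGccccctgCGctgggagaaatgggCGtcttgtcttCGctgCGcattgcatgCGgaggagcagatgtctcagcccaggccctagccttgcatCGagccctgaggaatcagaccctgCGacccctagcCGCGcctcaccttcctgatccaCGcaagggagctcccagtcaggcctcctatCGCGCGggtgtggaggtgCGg
TBX5: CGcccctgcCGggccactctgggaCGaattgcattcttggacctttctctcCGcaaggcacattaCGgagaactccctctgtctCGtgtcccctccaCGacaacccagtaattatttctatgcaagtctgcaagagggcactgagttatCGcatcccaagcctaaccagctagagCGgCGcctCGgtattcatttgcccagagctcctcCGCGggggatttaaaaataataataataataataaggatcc

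The CG ratio did not follow detection in 1 direction. The observed over expected CG ratio, a measure of how far CG dinucleotides have been kept, was 0.427 in SOX13 and 0.567 in SOX21. It was 1.003 in PAX9 and 1.05 in PAX7, and 0.711 in TBX1 and 0.818 in TBX5, so that the gene at 0 had the higher value in these chosen pairs. Other relatives had the opposite order. RefSeq start regions were matched for 41 of the 61 factor genes, and where a gene had several starts the median was taken. By that median GATA2, on in both libraries, had a ratio of 0.657 and GATA1, at 0, had 0.139, while SOX12, on in both, had 1.07 and SOX2, with at most 2 counts, had 0.682. TBX10 and TBX22 had at most 1 count and ratios of 0.217 and 0.323, under that of TBX1. A ratio of at least 0.6 was found in 6 of the 11 matched genes that were on in both libraries (54.5%), in 18 of the 24 matched genes with at most 3 counts (75%) and in 46.4% of 27305 genes. The share was higher among the silent than among the detected factor genes, with no test made.

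Short motifs were searched on both strands in the same windows, and none of the 4 motifs contains another. TATAAA, the TATA box, was in 12.2% of the 41 factor genes and 13.1% of all genes. CCAAT was in 51.2% of the factor genes and 37.0% of all genes, and GGGCGG, the GC box, in 58.5% of the factor genes and 46.2% of all genes. AGATAA, the letters that GATA factors bind, was in 12.2% of the factor genes and 11.1% of all genes. A match is a description of letters and not a bound site.

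Levels between genes are compared in FPKM, fragments relative to gene length and depth as the authors deposited it. SOX4, GATA2 and SOX12 held the first 3 places in both libraries, in that order. The next 3 were GATA6, SOX13 and TBX3 in the resistant library and TBX3, GATA6 and SOX13 in the parental library. The 5 genes with most counts were the same in both libraries (SOX4, GATA2, SOX12, SOX13 and TBX3). They took 80.1% of all factor gene counts in the resistant and 85.0% in the parental library.

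**Figure D2:**
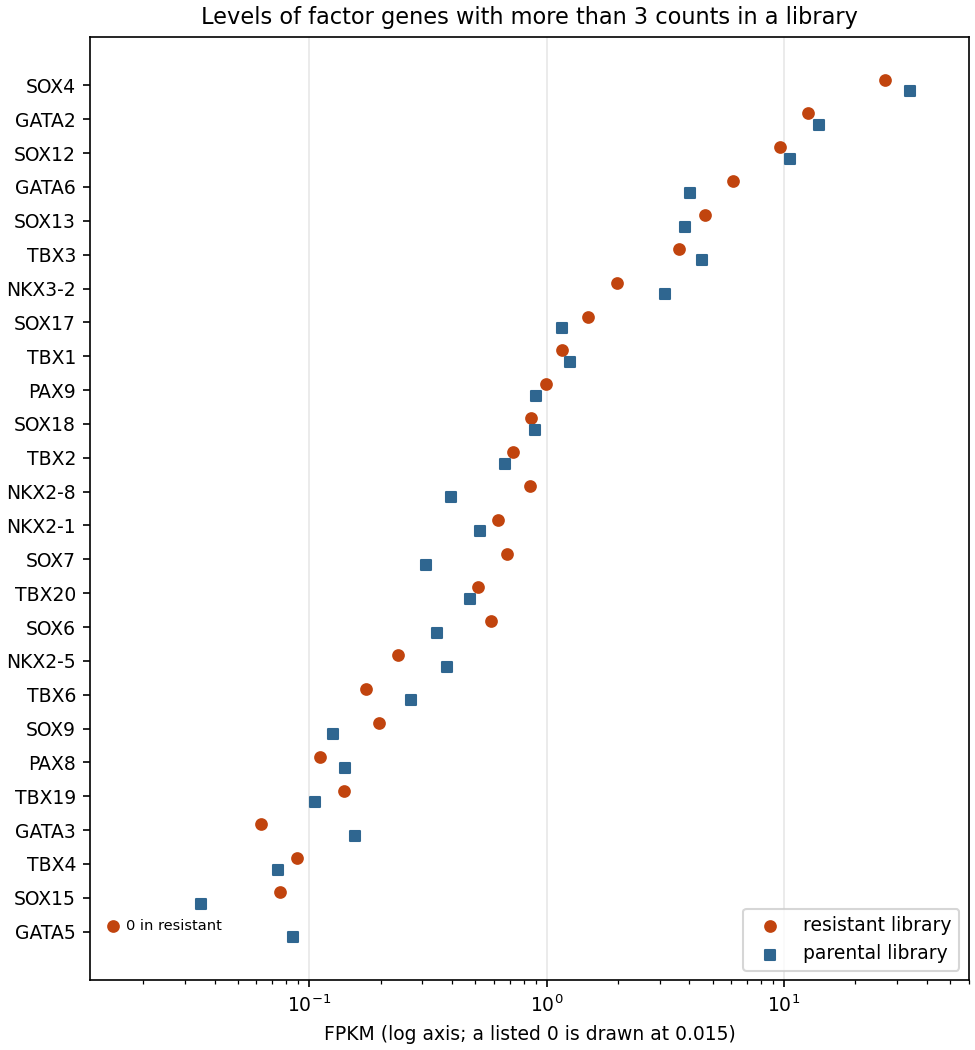
Deposited FPKM (horizontal log axis) of the reported factor genes with more than 3 counts in a library, ordered by mean level, with circles for the resistant and squares for the parental library. SOX4 stood at 26.5 FPKM in the resistant and 34.1 FPKM in the parental library, and most of the other genes were under 1 FPKM.

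The SOX genes on in both libraries were all of the C, D and F groups. SOX4 (ENSG00000124766; chromosome 6, 21592769 to 21598619, plus strand, GRCh38), a SOXC factor of progenitor cells that is widely expressed in carcinomas, had 2609 counts in the resistant and 3603 in the parental library. It was at 0.783-fold in the resistant library (95% interval 0.744 to 0.823), and its parental FPKM exceeded that of 94.4% of measured genes. SOX12 (chromosome 20, 325401 to 330224), another SOXC gene, had 777 and 924 counts in the resistant and parental libraries. Its fold of 0.909 had an interval that reached 1 (0.825 to 1.001). SOX11, the remaining SOXC gene and a factor of developing neurons, was at 0 in both.

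The SOXD genes SOX13 and SOX6 were higher in the resistant library. SOX13 (chromosome 1, 204073115 to 204127743) had 945 counts in the resistant and 834 in the parental library, at 1.22-fold (1.11 to 1.35). SOX6 (chromosome 11, 15966449 to 16739591), which acts with SOX5 and SOX9 in cartilage and also in red cell and muscle development, had 219 counts in the resistant and 140 in the parental library, at 1.69-fold (1.36 to 2.11). SOX6 shares 219 exon bases with C11orf58 on the opposite strand, which had 2764 counts in the resistant and 2423 in the parental library. The sources used here do not say whether counting used strand, so reads of C11orf58 and SOX6 in those bases cannot be told apart. The deposited FPKM of SOX6 was 0.581 in the resistant and 0.345 in the parental library. With a pseudocount of 1, which is larger than both levels, its log2 ratio on that scale shrank to 0.23. SOX5 had 0 and 1 counts in the resistant and parental libraries.

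The SOXF genes, factors of endothelium and, for SOX17, of endoderm, all had counts. SOX17 had 59 counts in the resistant and 49 in the parental library, at 1.302-fold (0.876 to 1.94). SOX18 had 27 counts in the resistant and 30 in the parental library. SOX7 had 37 counts in the resistant and 18 in the parental library, at 2.22-fold (1.23 to 4.15). SOX7 shares 1268 of its 3216 annotated exon bases with PINX1 on the same strand, and PINX1 had 11 counts in the resistant and 14 in the parental library.

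Markers of endothelium were few beside the SOXF genes. Of 9 endothelial genes, 1 was on in both libraries and 4 had 0 counts in both, KDR, TIE1, CLDN5 and EMCN. The list summed to 6.68 CPM in the resistant and 3.81 CPM in the parental library. CDH5, the endothelial cadherin, had 72 counts in the resistant and 20 in the parental library and was at 3.89-fold (2.34 to 6.74). It was past the size rule used throughout, a log2 ratio of 1 in either direction after adding 1 CPM to both levels. TEK had 22 and 17 counts and ERG had 11 and 19 counts in the resistant and parental libraries. The part of such cells in the SOX7 values was not tested.

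The remaining SOX genes were all under 1 CPM in both libraries. The SOXB1 genes SOX1 and SOX3 were at 0, and SOX2, a factor of stem cells, of neural progenitors and of foregut and airway epithelium, had 1 count in the resistant and 2 in the parental library. The SOXB2 genes SOX14 and SOX21 were at 0 in both. Among the SOXE genes, SOX9, a factor of cartilage, bile ducts and testis, had the 13 and 9 counts given above for the resistant and parental libraries. SOX10, the factor of neural crest and glia, was at 0, and SOX8 had 2 counts in the resistant and 0 in the parental library. SOX15 had 4 and 2 counts in the resistant and parental libraries, and SOX30, a factor of male germ cells, was at 0.

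Marker genes of these lineages were on in part. Of 9 neural genes 3 were on in both libraries, among them NES, an intermediate filament gene of progenitors, with 103 counts in the resistant and 185 in the parental library. Of 10 neural crest and melanocyte genes 4 were on. MITF, the master factor of melanocytes that also has forms in other cells, stood at 183 CPM in the resistant and 153 CPM in the parental library, whereas TYR and MLANA were at 0. TFAP2A, a factor of neural crest and surface ectoderm, stood at 128 and 139 CPM in the resistant and parental libraries. Of 11 chondrocyte genes 2 were on, and COL2A1 and ACAN, the defining matrix genes of cartilage, were at 0. The pluripotency list had 1 of 6 genes on, POU5F1, with NANOG and LIN28A at 0. POU5F1 shares exons with TCF19 on the opposite strand, which had 941 counts in the resistant and 2398 in the parental library.

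Of the GATA family, GATA2 and GATA6 were on, and they differed in the direction of their fold. GATA2 (ENSG00000179348; chromosome 3, 128479427 to 128493185, minus strand), a factor of blood stem cells and endothelium that also acts in trophoblast and in urogenital tissue, had 1470 counts in the resistant and 1756 in the parental library. It was at 0.905-fold (0.844 to 0.970). GATA6 (ENSG00000141448; chromosome 18, 22169443 to 22202528, plus strand), a factor of endoderm, heart and lung, had 550 counts in the resistant and 387 in the parental library, at 1.54-fold (1.35 to 1.75). Summed over the family, the GATA genes stood at 121 CPM in the resistant and 119 CPM in the parental library, at 1.01-fold (0.952 to 1.08).

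The other GATA genes had few or no counts. GATA3, a factor of T cells, breast and urothelium, had 6 counts in the resistant and 16 in the parental library, at 0.405-fold (0.130 to 1.09). GATA5 had 0 counts in the resistant and 4 in the parental library. GATA1, the erythroid factor, and GATA4, the factor of heart and liver bud, were at 0 in both.

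Among antisense RNAs of the factors, GATA2-AS1 had the highest FPKM in both libraries. GATA2-AS1, which overlaps GATA2 on the opposite strand but shares no exon base with it, had 386 counts in the resistant and 624 in the parental library, at 0.669-fold (0.587 to 0.760). GATA6-AS1, which shares 240 exon bases with GATA6, had 21 and 20 counts in the resistant and parental libraries. PAX8-AS1 had 94 counts in the resistant and 57 in the parental library, at 1.78-fold (1.27 to 2.52), and TBX2-AS1 had 80 and 39, at 2.22-fold (1.49 to 3.34). Of the 14 listed antisense and neighbouring RNAs, 4 were on in both libraries, and none was past the size rule.

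Lists linked to the GATA genes held few genes of blood. Of 10 erythroid and megakaryocyte genes 2 were on, RUNX1 at 73.1 CPM in the resistant and 78.2 CPM in the parental library and ITGA2B at 2.33 and 2.54 CPM. TAL1, KLF1, GFI1B and PTPRC were at 0. All 6 T cell genes were at 0, where TBX21, the factor of type 1 helper cells, was at 0 as well. All 9 genes of intestine had at most 3 counts in both. The urothelium and breast list had 2 of 8 genes on, and 1 of these, FOXA1, was past the size rule as lower. FOXA1, a pioneer factor of endoderm and of hormone-responsive epithelia, had 115 counts in the resistant and 376 in the parental library, at 0.331-fold (0.266 to 0.408). It shares exons with TTC6 on the opposite strand, which had 25 and 18 counts in the resistant and parental libraries.

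The definitive endoderm list, which FOXA1 also belongs to, had 5 of 8 genes on. HHEX, a factor of the foregut and liver bud, had 131 counts in the resistant and 243 in the parental library, at 0.583-fold (0.468 to 0.724). CXCR4 stood at 32.8 and 34.5 CPM in the resistant and parental libraries. FOXA2 and CER1 were at 0.

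The TBX genes were led by TBX3. TBX3 (ENSG00000135111; chromosome 12, 114670254 to 114684164, minus strand), a repressor that acts in limb, breast and liver bud, had 668 counts in the resistant and 904 in the parental library, at 0.799-fold (0.722 to 0.884). TBX2, its closest relative, had 130 counts in each library, at 1.08-fold (0.841 to 1.39). TBX1, the factor of pharyngeal arches and pouches, had 77 counts in the resistant and 89 in the parental library, at 0.935-fold (0.680 to 1.28). TBX1 shares 280 exon bases with GNB1L on the opposite strand, which had 88 and 73 counts in the resistant and parental libraries.

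Of the heart and mesoderm factors among them, TBX20 had 18 counts in each library. TBX6, a factor of paraxial mesoderm, had 15 counts in the resistant and 25 in the parental library, at 0.649-fold (0.318 to 1.28). TBX4, the hindlimb and lung mesenchyme factor, had 10 and 9 counts, and TBX19, the factor of pituitary corticotrophs, had 16 and 13 counts in the resistant and parental libraries. TBX5, TBX10, TBX18 and TBX21 were at 0, and TBX15 and TBX22 had 0 counts in the resistant and 1 in the parental library.

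TBX2, TBX3, TBX4 and TBX5 lie in pairs, and within each pair 1 gene had most of the counts. On chromosome 12 TBX3 had its 668 and 904 counts in the resistant and parental libraries while all 6 other genes from TBX5 up to it were at 0. At most 3 counts in both libraries were found for 63.5% of all genes. On chromosome 17 TBX2 had 130 counts in each library and TBX4 had 10 in the resistant and 9 in the parental library.

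Genes that TBX2 and TBX3 are known to repress were abundant in both libraries, apart from CDH1. CDKN2A, the gene of the cell cycle inhibitor p16, stood at 196 CPM in the resistant and 106 CPM in the parental library, at 1.84-fold (1.74 to 1.95). It shares exons with CDKN2B-AS1 on the opposite strand, which had 90 and 86 counts in the resistant and parental libraries. CDKN2B and CDKN1A, also cell cycle inhibitor genes, had 2500 and 1070 counts in the resistant library, against 2797 and 1235 in the parental library. CDH1, the epithelial cadherin, had 20 counts in the resistant and 5 in the parental library. None of the 6 listed genes was past the size rule, and their median log2 ratio was 0.03.

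Mesenchymal genes linked to the TBX factors were on for 6 of 10 genes. COL3A1 stood at 195 and 217 CPM and COL1A1 at 156 and 142 CPM in the resistant and parental libraries, whereas COL1A2, PDGFRA and PRRX1 were at 0. LUM, a proteoglycan gene of fibroblasts, had 216 counts in the resistant and 93 in the parental library, at 2.51-fold (1.96 to 3.24), and was the 1 gene of the list past the size rule. Of 10 heart muscle genes 2 were on, and NPPA, MYH6 and MYH7 were at 0. ACTC1, the cardiac actin gene that some tumour lines also express, stood at 26.8 CPM in the resistant and 32.2 CPM in the parental library. Of 5 pituitary genes 2 were on, among them PITX1, and POMC and LHX3 were at 0.

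Among the PAX genes, PAX9 and PAX8 were on. PAX9 (ENSG00000198807; chromosome 14, 36657568 to 36679715, plus strand), a factor of the pharyngeal pouches, teeth and oesophageal epithelium, had 168 counts in the resistant and 163 in the parental library, at 1.11-fold (0.893 to 1.39). It shares 481 exon bases with SLC25A21 on the opposite strand, which had 52 and 46 counts in the resistant and parental libraries. PAX8, the factor of thyroid, kidney and Müllerian epithelium, had 19 counts in the resistant and 26 in the parental library, at 0.790-fold (0.413 to 1.48). Per gene length PAX8 stood at 0.112 FPKM in the resistant and 0.142 FPKM in the parental library, and it shares 685 exon bases with PAX8-AS1 on the opposite strand.

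PAX1, PAX3, PAX4, PAX5, PAX6 and PAX7 were at 0, and PAX2 had 0 counts in the resistant and 1 in the parental library. These are factors of sclerotome and thymus (PAX1), kidney (PAX2), neural crest and muscle (PAX3 and PAX7), pancreatic islet (PAX4), B cells (PAX5) and eye, brain and islet (PAX6). The skeletal muscle list had 1 of 7 genes on, MYH3, with MYF5, MYOD1 and MYOG at 0. The B cell list had 1 of 6 on, CD22, and the pancreatic endocrine list 1 of 8, ISL1, with PDX1, INS and GCG at 0. Of 7 Müllerian genes 2 were on, FOLR1 and OVGP1, and the kidney list had 3 of 11 on, among them SIX2 and LRP2, with UMOD, WT1 and CDH6 at 0. SIX2, a factor of nephron progenitors and of head mesenchyme, had 205 counts in the resistant and 314 in the parental library, at 0.706-fold (0.589 to 0.844).

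The 4 NKX genes on in both libraries included NKX3-2, NKX2-1 and NKX2-5. NKX3-2 (ENSG00000109705; chromosome 4, 13540830 to 13545050, minus strand), a factor of sclerotome, jaw joint and gut mesoderm, had the highest FPKM of the family in both libraries, with 93 counts in the resistant and 159 in the parental library. It was at 0.632-fold (0.484 to 0.822). NKX2-5, the heart factor, had 18 counts in the resistant and 31 in the parental library, at 0.628-fold (0.331 to 1.16).

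NKX2-1 (ENSG00000136352; chromosome 14, 36516392 to 36521149, minus strand), the factor of thyroid, lung and ventral forebrain, had 71 counts in the resistant and 64 in the parental library, at 1.20-fold (0.843 to 1.71). Lung and thyroid genes were present in part. Of 10 lung genes 3 were on, ABCA3 at 89.9 CPM in the resistant and 97.2 CPM in the parental library, LAMP3 at 9.01 and 9.16 CPM and SCGB3A2, a secretoglobin of airway epithelium, at 4.47 and 4.80 CPM. The surfactant genes SFTPA1, SFTPA2, SFTPB, SFTPC and SFTPD had 0 counts in the resistant and at most 5 in the parental library. Of 8 thyroid genes 1 was on, FOXE1, a factor of thyroid and palate, with 515 counts in the resistant and 415 in the parental library at 1.34-fold (1.18 to 1.53). TG and TSHR were at 0.

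NKX2-8 had 18 counts in the resistant and 9 in the parental library, and 9 NKX genes were at 0 in both. The 9 were NKX1-1, NKX1-2, NKX2-2, NKX2-3, NKX2-4, NKX2-6, NKX6-1, NKX6-2 and NKX6-3, which include the factors of islet, ventral neural tube, gut mesoderm and spleen. Of the prostate list, 1 of 6 genes was on, HOXB13, with 100 counts in the resistant and 199 in the parental library, while KLK3 and TMPRSS2 were at 0.

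In the clusters of NKX2 and PAX genes, neighbouring factor genes were alike in having counts or having none. NKX2-1, NKX2-8 and PAX9 follow each other on chromosome 14, and each had counts in both libraries. NKX2-8 stayed under 1 CPM in the parental library, at 0.497 CPM. The related genes NKX2-4, NKX2-2 and PAX1 follow each other on chromosome 20 between 21395367 and 21718486, and all 13 genes of the table in that stretch were at 0. The chromosome 14 counts came from some of the genes there, since 11 of the 19 genes from MBIP to MIPOL1 were at 0 in both libraries, among them SFTA3, which overlaps the NKX2-1 gene. MBIP, on the far side of SFTA3, had 376 counts in the resistant and 464 in the parental library, at 0.876-fold (0.763 to 1.006).

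**Figure D3:**
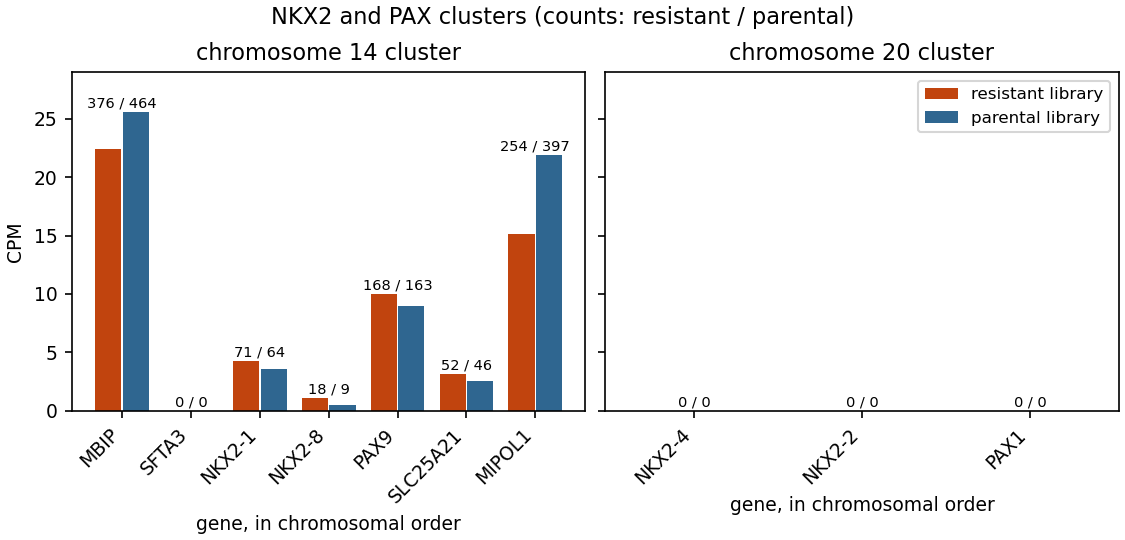
CPM (vertical axis) of selected genes of the NKX2 and PAX clusters on chromosomes 14 and 20 in chromosomal order, with the resistant library left and the parental library right in each pair of bars and both counts printed above. PAX9 had 168 and 163 counts and NKX2-1 had 71 and 64, whereas NKX2-4, NKX2-2 and PAX1 had none.

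The comparison of the resistant with the parental culture asked whether the factors of tissue identity differ after selection. It was made for the 21 factor genes that reached 1 CPM in a library, by the same log2 ratio and size rule. Of the 21, 0 were past the rule as higher and 0 as lower, against 1.31% (higher) and 0.994% (lower) of 14686 measured genes, 2.30% in all. With a pseudocount of 0.1 CPM in place of 1, 2 of the 21 were past the rule as higher, among them SOX7 at a log2 ratio of 1.08. The authors' deposited table compared 29 of the 61 factor genes and called none of them, where it called 492 of 21518 genes (2.29%). Its log2 fold changes were past 1 in either direction for some with few counts, such as SOX7 (1.14), NKX2-8 (1.10) and GATA3 (-1.31). Most of the others lay within 1.

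The log2 ratios of the 21 genes lay between -0.58 (NKX3-2) and 0.69 (SOX6). The median was 0.06, against -0.0018 over all measured genes, with 11 ratios positive and 10 negative. A ratio past 0.5 in either direction was reached by 5 of 21 genes, where 11.8% of measured genes did so. Of these 4 were higher, among them SOX6, SOX7 and GATA6, and NKX3-2 was lower.

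The counting interval of the fold excluded 1 for 9 of the 21 genes, where it did for 42.2% of measured genes, a share near that of the factor genes. The fold was above 1 for 5 of them, among which were SOX6, SOX7, SOX13 and GATA6, and below 1 for SOX4, GATA2, TBX3 and NKX3-2. Such an interval speaks of these 2 libraries and not of the conditions. Summed over all 61 genes, the factor genes stood at 482 CPM in the resistant and 521 CPM in the parental library, at 0.925-fold (0.898 to 0.953). By family the SOX sum was at 0.904-fold (0.869 to 0.940) and the TBX sum at 0.848-fold (0.778 to 0.925). The NKX sum was at 0.908-fold (0.761 to 1.08) and the PAX sum at 1.06-fold (0.865 to 1.31). Such sums follow the genes with most counts and are not a shift shared by the members. SOX4 had 2609 of the 4693 SOX counts in the resistant and 3603 of the 5612 in the parental library. TBX3 had 668 of 934 TBX counts in the resistant and 904 of 1190 in the parental library. NKX3-2 had 93 of 237 NKX counts in the resistant and 159 of 282 in the parental library.

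**Figure D4:**
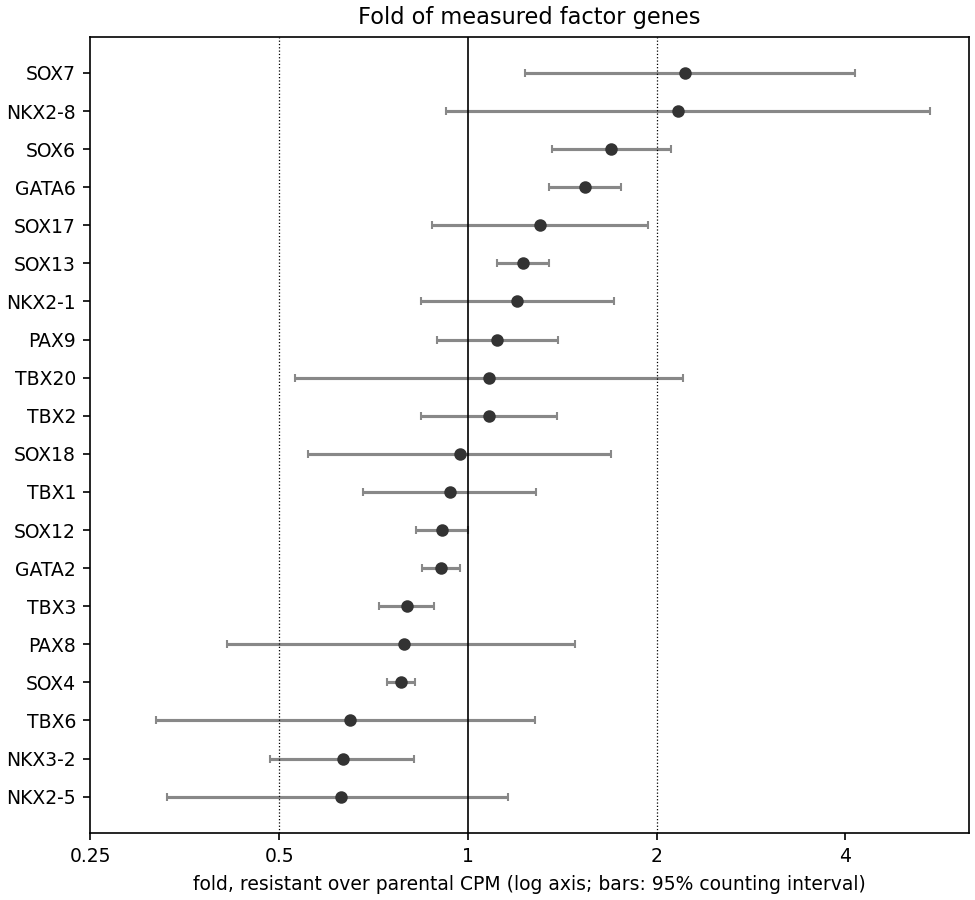
Fold of resistant over parental CPM (horizontal log axis) of the reported factor genes that reached 1 CPM in a library, with bars for the 95% counting interval and dotted lines at 0.5 and 2. GATA6 at 1.54-fold and SOX4 at 0.783-fold had narrow intervals that excluded 1, whereas NKX2-8 at 2.16-fold had an interval from 0.922 to 5.46.

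Most listed genes of proteins that these factors bind had counts in both libraries. Of 9 genes of the cofactor list 8 were on, where 59.8% of protein-coding genes were on in both libraries. None of them was past the size rule, which 2.30% of measured genes passed. LMO4, a LIM-domain partner of GATA factors and others, stood at 308 CPM in the resistant and 242 CPM in the parental library, while CTNNB1, the beta-catenin gene whose product several SOX proteins bind, had 4243 and 4657 counts in the resistant and parental libraries. TLE5 and TLE3 had 1836 and 1025 counts in the resistant library, against 2025 and 1238 in the parental library. Both are members of the Groucho family, which includes corepressors that NKX and PAX proteins recruit. ZFPM1, the gene of the GATA partner FOG1, had 97 and 95 counts in the resistant and parental libraries, and ZFPM2, the gene of FOG2, was at 0.

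Related genes outside the rule included MGA, a T-box protein that also joins the MAX network, which stood at 158 CPM in the resistant and 161 CPM in the parental library. TRPS1, an atypical GATA-type repressor, had 375 counts in the resistant and 493 in the parental library, at 0.822-fold (0.717 to 0.942). EOMES, a T-box factor of endoderm and T cells, had 18 and 25 counts in the resistant and parental libraries, TBXT, the brachyury gene, was at 0, and TBR1 had 3 and 0.

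Over all 25 marker lists of lineages, the fibroblast, the duct and the endoderm list had most genes on, and the hepatocyte, intestine and T cell lists had none. The 6 of 10, 5 of 8 and 5 of 8 genes on in those 3 lists are shares near the 59.8% of protein-coding genes on in both libraries, so they are no result about these lineages. The duct list had 5 of 8 genes on, among them KRT7, a keratin gene of ducts, with 42176 counts in the resistant and 34278 in the parental library. KRT19 had 12 and 14 counts and EPCAM was at 0. MUC1 had 220 counts in the resistant and 119 in the parental library, at 1.998-fold (1.59 to 2.52). Of 5 squamous genes 2 were on, with TP63 at 2 counts in the resistant and 4 in the parental library. Of 7 gonad genes 3 were on, and AMH, a hormone gene that SOX9 and GATA4 activate in Sertoli cells, was past the size rule with 301 counts in the resistant and 137 in the parental library, at 2.37-fold (1.93 to 2.93). In a bulk sample, fewer cells of a type and less RNA per cell cannot be told apart.

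**Figure D5:**
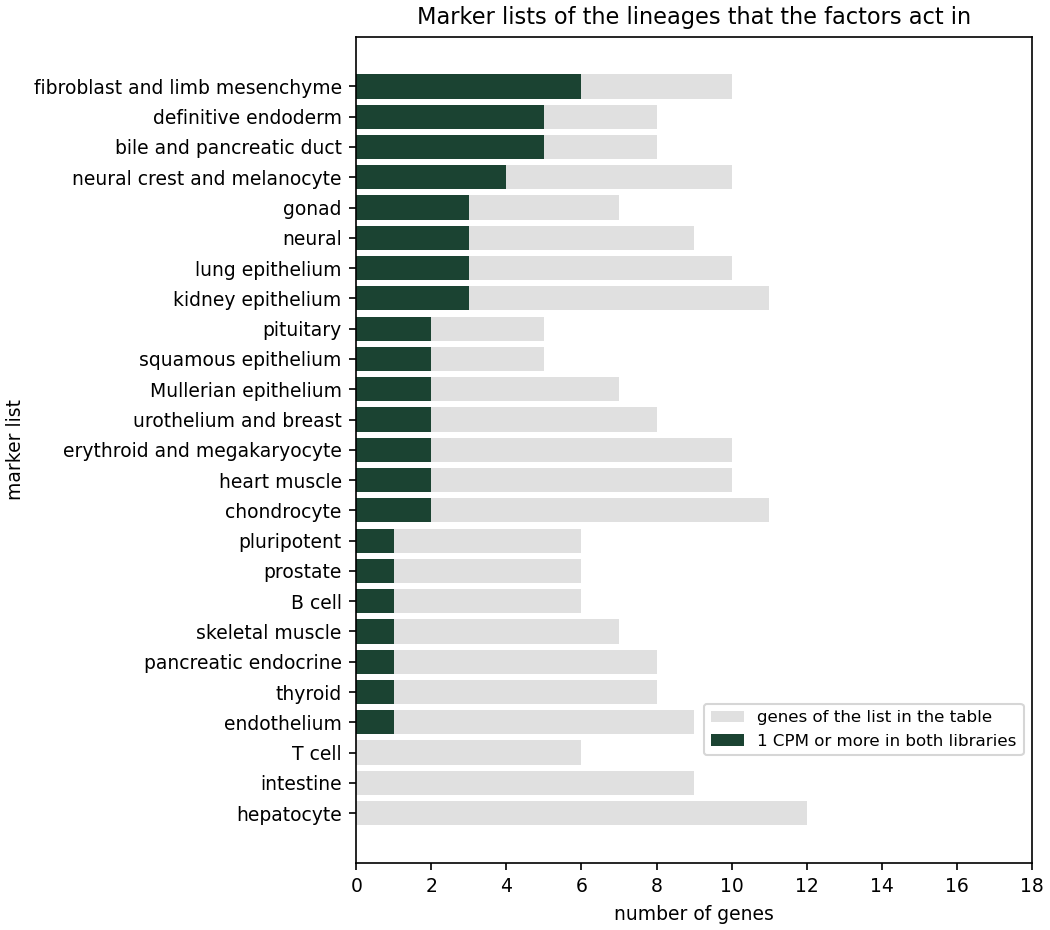
Number of genes (horizontal axis) of each of 25 marker lists (vertical axis), with light bars for all genes of the list in the table and dark bars for those at 1 CPM or more in both libraries. The fibroblast and limb mesenchyme list had 6 of 10 genes on, and the hepatocyte list had none of 12.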

How the data were processed

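Messenger RNA was sequenced from 1 resistant and 1 parental culture. Per the submitters' processing notes, the work used bcl2fastq 2.19, HISAT2 2.0.4 and StringTie 1.3.0 on GRCh38. The sources used here give neither the annotation nor the counting settings nor the use of strand. The authors deposited whole-number counts per gene, not normalized, and FPKM, which in genes with more than 20 counts in both libraries scaled with count over library total, by a factor fixed for each gene. The authors also deposited log2 fold changes for 1 library against 1 library, with a p-value and q-value each from an unstated test; no such p-value or q-value is printed.

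Counts were scaled to CPM with TMM factors (edgeR's correction for composition) of 0.997 for the resistant and 1.003 for the parental library (edgeR 4.0.16, R 4.3.3), with no model fitted. Ratios used a pseudocount of 1 CPM, and a gene was measured at 1 CPM or more in a library. Folds carry no pseudocount and have an exact Clopper-Pearson 95% interval of the 2 counts given their sum. The calculation was tested on simulated data. Exon overlaps came from GENCODE 29, in which all 61 genes were found and 54 had identical coordinates. PCR copies are not independent molecules, so intervals are too narrow where they occur. The named genes were the factor genes with more than 3 counts and, from each of 29 lists, up to 4 genes with the largest CPM and those past the size rule. List symbols numbered 238, of which 2 were not found, both older names of genes listed under their current symbol. Other listed genes were named after their values were seen, to show which defining markers had few or no counts. Some factor genes and listed genes are counted but not reported by name here. The factor genes and the lists were chosen with earlier results of these data known.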

Additional observations from a re-analysis of the deposited data

How the results depend on the processing

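No paired analysis was possible because each group had 1 library, and for the same reason no replicate could be left out. The 17 factor genes on in both libraries and the 21 measured became 9 and 9 with the deposited FPKM, 6 and 8 with a minimum of 10 CPM, 27 and 33 with no minimum, and 7 and 9 without the genes that overlap another gene. The count of 0 higher genes became 2 with a pseudocount of 0.1 CPM. With a log2 ratio of 0.5 in place of 1, 4 genes were higher and 1 was lower. CPM without TMM factors, DESeq2 1.42.0 size factors, a minimum of 0.5 CPM and a pseudocount of 0.5 CPM left the counts within 1.5 times. No sign of the 21 log2 ratios changed under the 5 scaling and pseudocount settings. Of the 105 recomputed ratios, 104 lay within the counting interval of the fold. All 5 settings reuse the same 2 counts per gene, so they show the effect of processing only and not that of a repeat. The median ratio lay between -0.13 with the deposited FPKM and 0.10 with a pseudocount of 0.1 CPM. Depth limits the low genes, as for TBX20, with 18 counts in each library and an interval of 0.531 to 2.20.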

Other observations

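Transcription factors of head and pharyngeal development outside the 5 families were looked up after TBX1, PAX9 and FOXE1 had been seen to have counts, so the list is a description only. Of its 20 genes 12 were on in both libraries and 5 were at 0 in both, and none was past the size rule. The share on was close to the 59.8% of all protein-coding genes, so the count says nothing particular about the list. PITX1, a factor of hindlimb, jaw and pituitary, stood at 105 CPM in the resistant and 83.4 CPM in the parental library, at 1.26-fold (1.18 to 1.35). EYA4, a transcriptional cofactor, had 1343 counts in the resistant and 1545 in the parental library, and SIX4 had 512 and 562 counts. FOXN1, the factor of thymic epithelium and hair, had 48 and 59 counts in the resistant and parental libraries, while GCM2, the parathyroid factor, DLX5, MSX2, FOXI3 and RIPPLY3 were at 0 in both. MSX1 had 70 counts in the resistant and 117 in the parental library, at 0.647-fold (0.474 to 0.877).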
